A study of Mus musculus with 12 samples.

Results

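Leukocyte adhesion molecule genes encode the endothelial surface proteins that catch white blood cells from the flow and let them into the vessel wall. Chromatin accessibility near 6 of them (Vcam1, Icam1, Sele, Selp, Jam3 and F11r) was examined in mouse aortic endothelial cells by ATAC-seq, an assay that inserts sequencing tags where DNA is open. A peak was taken as belonging to a gene when that gene had the nearest protein-coding span in GRCm38, within 100 kb. This gave 22 of the 95734 peaks in the 4 peak lists, with 6 in WDM-WDO, 6 in CDM-WDO, 7 in WDM-CDO and 3 in CDM-CDO. Merged where they overlapped by at least 1 bp, they formed 10 of 48003 regions.

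Each group name gives the maternal diet (M) before that of the offspring (O), as the labels were read here. In WDM-WDO both generations had WD, in CDM-WDO the offspring alone, in WDM-CDO the mothers alone, and in CDM-CDO neither. The labels used here leave the make-up of CD and WD unstated. Offspring of the WDO groups had been put back on WD for 4 weeks. Strain, sex and the number of animals behind a sample are not given in the sources used here. Peak names carry the tag 12w in both WDO lists and 08w in both CDO lists, so the offspring's diet and whatever these tags stand for cannot be told apart. Each group had 2 samples and 1 peak list, so there was no replicate to test against and no difference between lists carries a p-value.

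The lists held 26275 peaks for WDM-WDO, 18962 for CDM-WDO, 28319 for WDM-CDO and 22178 for CDM-CDO on the autosomes and X. Total reads per sample were not used here. The pileup, or count of reads over a summit, was recovered with its local background from the deposited fold and −log10 p. The lowest local background at any peak of a list was taken as its genome background. It was 6.08, 5.49, 5.59 and 4.84 reads in the same order. Scaled height is the pileup less this background, divided by the median of the same quantity over 7354 strong regions shared by all 4 lists. A scaled height of 1 is thus that of a typical strong shared region. Of 10 endothelial markers, Kdr and Tie1 had a peak within 1 kb of a gene end in all 4 lists and Erg in both CDO lists. Cdh5 and Pecam1 had regions in every list but no such peak in any, while the leukocyte marker Ptprc had such a peak in every list. Intervals are exact 95% Poisson intervals on a pileup, or exact binomial intervals on a share, and cover counting error only. The binomial intervals treat regions as independent, although 4 of the 10 regions belong to F11r and 2 to Jam3.

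Capture of leukocytes runs in steps. The selectins Sele (E-selectin) and Selp (P-selectin) bind sugars on passing cells and make them roll. The immunoglobulin-type proteins Icam1 and Vcam1 then bind leukocyte integrins and stop the cells. The junctional adhesion molecules F11r (JAM-A) and Jam3 (JAM-C) sit at contacts between endothelial cells and guide the passage through them. Vcam1, Icam1 and Sele are classic targets of inflammatory signalling through NF-kB, and Vcam1 and Icam1 are raised over plaque-prone parts of the artery.

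Across the 4 lists the 6 genes fell into 3 kinds. Icam1 and Selp each had 1 region called in every list, with scaled heights of 0.68 to 1.07. A region of Jam3 was also called in every list, at scaled heights of 0.30 to 0.72. Jam3 and F11r had 5 regions whose presence differed between lists, and 4 of these were called in WDM lists alone. That is 4 of the 10 regions (40%, interval 12.2 to 73.8%), against 38.3% of all regions, a share near the background. With bulk samples, fewer open cells and less opening per cell cannot be told apart. Vcam1 and Sele, like Selp, had no peak at either end of the gene in any list. The single regions of Vcam1 and Sele lay outside the gene and were called in WDO lists, while that of Selp lay inside it. The Vcam1 region stood above 60.9% of WDM-WDO peaks and above 48.4% of CDM-WDO peaks. The Sele region stood above 42.1% of CDM-WDO peaks. Of the 10 regions 3 were in all 4 lists (30%, interval 6.67 to 65.2%), against 21.6% of all regions, and 4 were in exactly 1 list (40%, 12.2 to 73.8%), against 54.9% of all regions. Both shares were within counting error of the background.

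**Figure D1:**
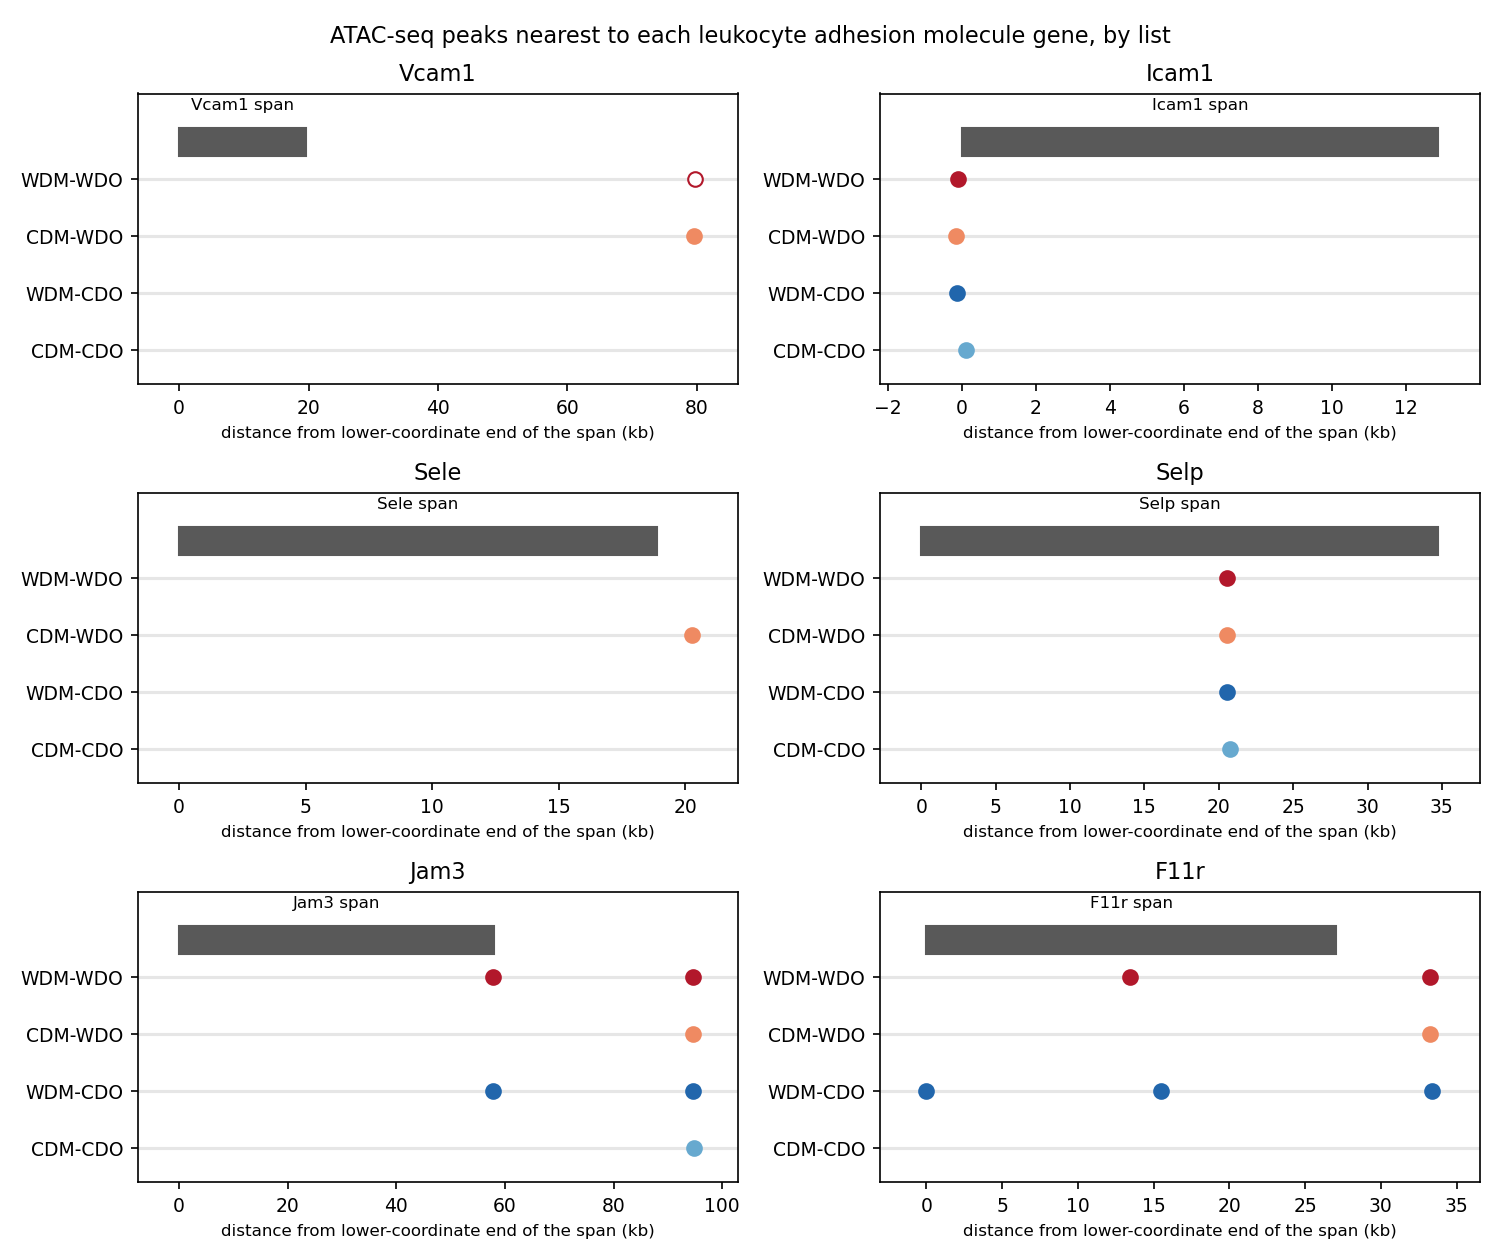
Peaks by distance (kb) from the lower-coordinate end of each gene span (grey bar), with 1 row per list and a circle at the middle of each peak. Icam1 and Selp have a circle in all 4 rows, F11r has 0 circles in the CDM-CDO row, and the open circle is the WDM-WDO peak that overlaps the Vcam1 peak but does not itself meet the nearest-gene rule.

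The promoters of the 4 genes in the RefSeq table used are shown, and the promoter sequences of Vcam1 and Jam3 were not analysed here. The 4 differed in their peaks, with a peak over Icam1 in every list, a peak over F11r in 1 list, and none over Sele or Selp. Each is the 250 bases before the annotated start, from RefSeq on GRCm38.p6, written 5′ to 3′. All are on the plus strand, at chr9:21015690-21015939 for Icam1, chr1:171437311-171437560 for F11r, chr1:164047984-164048233 for Sele and chr1:164115014-164115263 for Selp. Capitals mark matches to any of 5 motifs searched on both strands.
Icam1: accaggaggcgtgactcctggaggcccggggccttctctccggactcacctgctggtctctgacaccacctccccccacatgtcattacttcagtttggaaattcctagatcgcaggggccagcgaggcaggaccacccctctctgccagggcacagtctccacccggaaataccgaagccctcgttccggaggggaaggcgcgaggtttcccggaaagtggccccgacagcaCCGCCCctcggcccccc
F11r: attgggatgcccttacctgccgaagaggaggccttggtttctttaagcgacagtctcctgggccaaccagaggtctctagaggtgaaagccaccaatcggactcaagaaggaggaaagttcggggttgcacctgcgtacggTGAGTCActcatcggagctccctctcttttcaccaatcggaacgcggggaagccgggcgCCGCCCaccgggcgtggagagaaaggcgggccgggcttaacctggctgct
Sele: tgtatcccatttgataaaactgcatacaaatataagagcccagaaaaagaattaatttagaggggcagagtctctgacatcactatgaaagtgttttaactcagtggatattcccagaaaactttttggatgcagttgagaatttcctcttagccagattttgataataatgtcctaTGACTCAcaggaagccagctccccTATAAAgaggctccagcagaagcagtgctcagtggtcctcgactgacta
Selp: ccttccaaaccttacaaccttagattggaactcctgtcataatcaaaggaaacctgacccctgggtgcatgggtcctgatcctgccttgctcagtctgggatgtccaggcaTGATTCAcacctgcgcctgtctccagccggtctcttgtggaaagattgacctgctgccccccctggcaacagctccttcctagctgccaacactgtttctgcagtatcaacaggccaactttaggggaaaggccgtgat
The motifs were the NF-kB consensus, AP-1 (TGANTCA), ETS (CGGAAG), SP1 (GGGCGG) and the TATA box (TATAAA). They were found in 4.23%, 6.17%, 17.3%, 43.1% and 11.7% of 21037 promoters of protein-coding genes. The Icam1 window held 1 SP1 match at bases 234 to 239, counted from 1 at the 5′ end. The F11r window held an AP-1 match at bases 142 to 148 and an SP1 match at bases 201 to 206. The Sele window held an AP-1 match at bases 178 to 184 and a TATA box at bases 202 to 207, and the Selp window an AP-1 match at bases 112 to 118. No motif overlapped another. No exact match to the NF-kB consensus or ETS letters was found in these windows. Stretches that differ from the letters by 1 base were not counted, so this says nothing on binding of the factors.

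The windows with a peak were rich in the dinucleotide CpG and those without were poor in it. Icam1 had 15 and F11r 17 CpG, against 1 in Sele and 3 in Selp. Over all promoters, a peak overlapped the window with 11 to 19 CpG in 71.5% of cases in WDM-WDO, 61.7% in CDM-WDO, 77.0% in WDM-CDO and 72.9% in CDM-CDO. For windows with 0 to 3 CpG the shares were 6.69%, 3.27%, 5.86% and 4.47%. The uncalled promoters of Sele and Selp were thus like most promoters with so little CpG. The F11r promoter, called in 1 list, was of a class in which 58.6% of windows were called in all 4. These shares count overlap with the 250 bases before and 50 bases after the start.

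**Figure D2:**
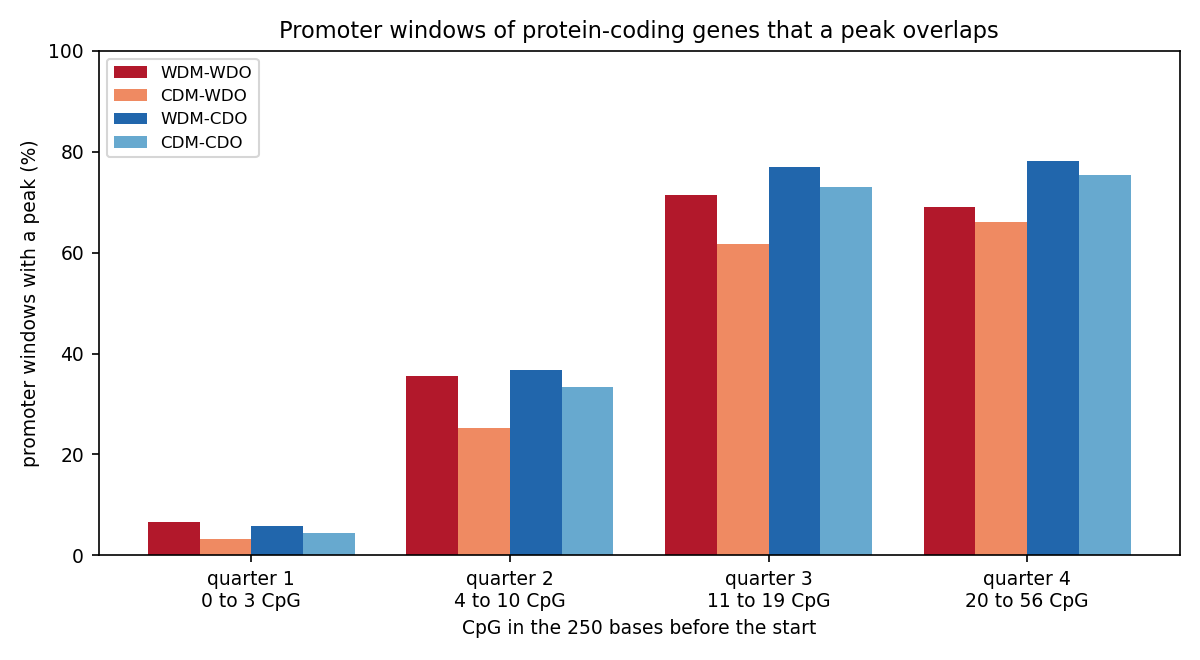
Percent of promoter windows of protein-coding genes that a peak overlaps, in 4 classes of CpG count, with 1 bar per list. Icam1 (15 CpG) and F11r (17 CpG) fall in the 11 to 19 class, where 61.7 to 77.0% of windows have a peak, and Sele and Selp in the 0 to 3 class, where 3.27 to 6.69% do.

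Icam1, the ligand of the leukocyte integrins LFA-1 and Mac-1, was open at its start in all 4 lists. The merged region (chromosome 9, 21014841 to 21016838) covered the start at 21015940. Its peaks were among the widest of their lists, at 1998 bp in WDM-WDO, 1876 bp in CDM-WDO, 1931 bp in WDM-CDO and 1507 bp in CDM-CDO, above 97.2 to 99.6% of peaks. Summit pileups were 76 reads (59.9 to 95.1) in WDM-WDO, 50 (37.1 to 65.9) in CDM-WDO, 83 (66.1 to 103) in WDM-CDO and 52 (38.8 to 68.2) in CDM-CDO. Pileups were higher in both WDM lists, but scaled heights of 0.85, 0.83, 0.77 and 0.68 had intervals that all overlapped. The −log10 q values, the authors' own as throughout, were 19.7, 8.38, 22.9 and 13.2. In each list Icam1 stood above 59.4 to 73.6% of peaks by −log10 q.

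Vcam1, which binds the integrin VLA-4 on monocytes and lymphocytes, had no peak in or near its span. The closest peak to either end of the gene was 59821 bp away in WDM-WDO, 59794 bp in CDM-WDO, 101680 bp in WDM-CDO and 52689 bp in CDM-CDO. A region beyond the upper-coordinate end (chromosome 3, 116189482 to 116189933) had a peak in both WDO lists and in neither CDO list, in no RefSeq gene. By the nearest-gene rule only the CDM-WDO peak belonged to Vcam1, by a narrow margin, and the WDM-WDO peak was counted because it overlaps that peak. Vcam1 therefore cannot be named as the target of the region. Pileups were 39 reads (27.7 to 53.3) in WDM-WDO and 24 (15.4 to 35.7) in CDM-WDO, with −log10 q of 11.5 and 5.55. Presence in both WDO lists and no CDO list, a pattern read from this region, was found at 715 of all regions (1.49%).

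Selp, the selectin that endothelium and platelets keep in granules for quick release, had its region inside the gene. The region (chromosome 1, 164135344 to 164136648) lay past the middle of the span, with summits 20413 to 20766 bp from the start. No peak lay closer to the start than 20133 bp in WDM-WDO, 20157 bp in CDM-WDO, 20120 bp in WDM-CDO and 16748 bp in CDM-CDO. In each list its peak had the highest −log10 q of those near the 6 genes, with 43.4 in WDM-WDO, 19.8 in CDM-WDO, 35.3 in WDM-CDO and 22.7 in CDM-CDO, above 75.7 to 88.5% of their lists. Pileups were 94 (76.0 to 115), 57 (43.2 to 73.9), 86 (68.8 to 106) and 64 (49.3 to 81.7) reads in that order. Scaled heights were 1.07, 0.96, 0.80 and 0.86, with intervals that all overlapped. The Selp region was thus close in height to a typical strong shared region in each list.

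Sele, which activated endothelium makes anew, had no peak at either end of its span. Its region (chromosome 1, 164059724 to 164060050) was called in CDM-WDO alone, 1237 bp beyond the upper-coordinate end. It lay within the span of a long non-coding RNA gene, Gm51665. The pileup was 22 reads (13.8 to 33.3) with a −log10 q of 4.50. The closest peak to the upper-coordinate end was 63167 bp away in WDM-WDO, 63028 bp in WDM-CDO and 12699 bp in CDM-CDO. The start in the promoter table lies 8620 bp inside the span, and no peak was closer to it than 52914, 11490, 52775 and 22952 bp in WDM-WDO, CDM-WDO, WDM-CDO and CDM-CDO.

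Jam3 had a region at its upper-coordinate end in both WDM lists and in neither CDM list, called the Jam3 end below. The strand of Jam3 was not used here, so the Jam3 end may be the start of the gene. That region (chromosome 9, 27154941 to 27155493) had a pileup of 24 (15.4 to 35.7) in WDM-WDO and 29 (19.4 to 41.6) in WDM-CDO, with −log10 q of 4.09 and 7.58. Both were weak, at scaled heights of 0.22 and 0.23, and stood above 29.9% and 47.9% of their lists. Presence in both WDM lists alone was found at 1691 of all regions (3.52%). A second region, 36121 bp beyond that end and in no RefSeq gene (chromosome 9, 27191542 to 27192611), was called in all 4 lists. Its pileups were 31 (21.1 to 44.0) in WDM-WDO, 44 (32.0 to 59.1) in CDM-WDO, 53 (39.7 to 69.3) in WDM-CDO and 41 (29.4 to 55.6) in CDM-CDO. Scaled heights were 0.30, 0.72, 0.47 and 0.52, so WDM-WDO was the lowest and CDM-WDO the highest, and these were the pair whose intervals did not overlap. Set against the genome background instead, the pileups were 5.10, 8.02, 9.48 and 8.47 times that level, with WDM-WDO again lowest and WDM-CDO highest.

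F11r had the most regions of the 6 genes, 4 in all, and none of them was called in CDM-CDO. The region over its start (chromosome 1, 171437213 to 171437812) also covered the start window of Gm26641, a long non-coding RNA gene on the other strand. It was called in WDM-CDO alone, with a pileup of 35 (24.4 to 48.7), −log10 q of 4.98 and a summit 47 bp before the start, at base 204 of the printed promoter, inside the SP1 match. Inside the span, a region at 171450877 to 171451133 was called in WDM-WDO alone, with a pileup of 23 (14.6 to 34.5) and −log10 q of 2.15. Another at 171452793 to 171453233 was called in WDM-CDO alone, with a pileup of 23 (14.6 to 34.5) and −log10 q of 3.29. All 3 were in the weaker part of their lists, above 36.2%, 6.32% and 21.8% of peaks. The region with the best support lay beyond the upper-coordinate end (chromosome 1, 171470325 to 171471361), 5732 bp from the gene and 32117 bp from the next one, Alyref2. It had 64 reads (49.3 to 81.7) in WDM-WDO, 23 (14.6 to 34.5) in CDM-WDO and 28 (18.6 to 40.5) in WDM-CDO, with −log10 q of 27.9, 4.67 and 7.16. WDM-WDO was the highest, at a scaled height of 0.71 against 0.33 in CDM-WDO and 0.22 in WDM-CDO. Presence in the 3 lists other than CDM-CDO was found at 998 of all regions (2.08%).

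**Figure D3:**
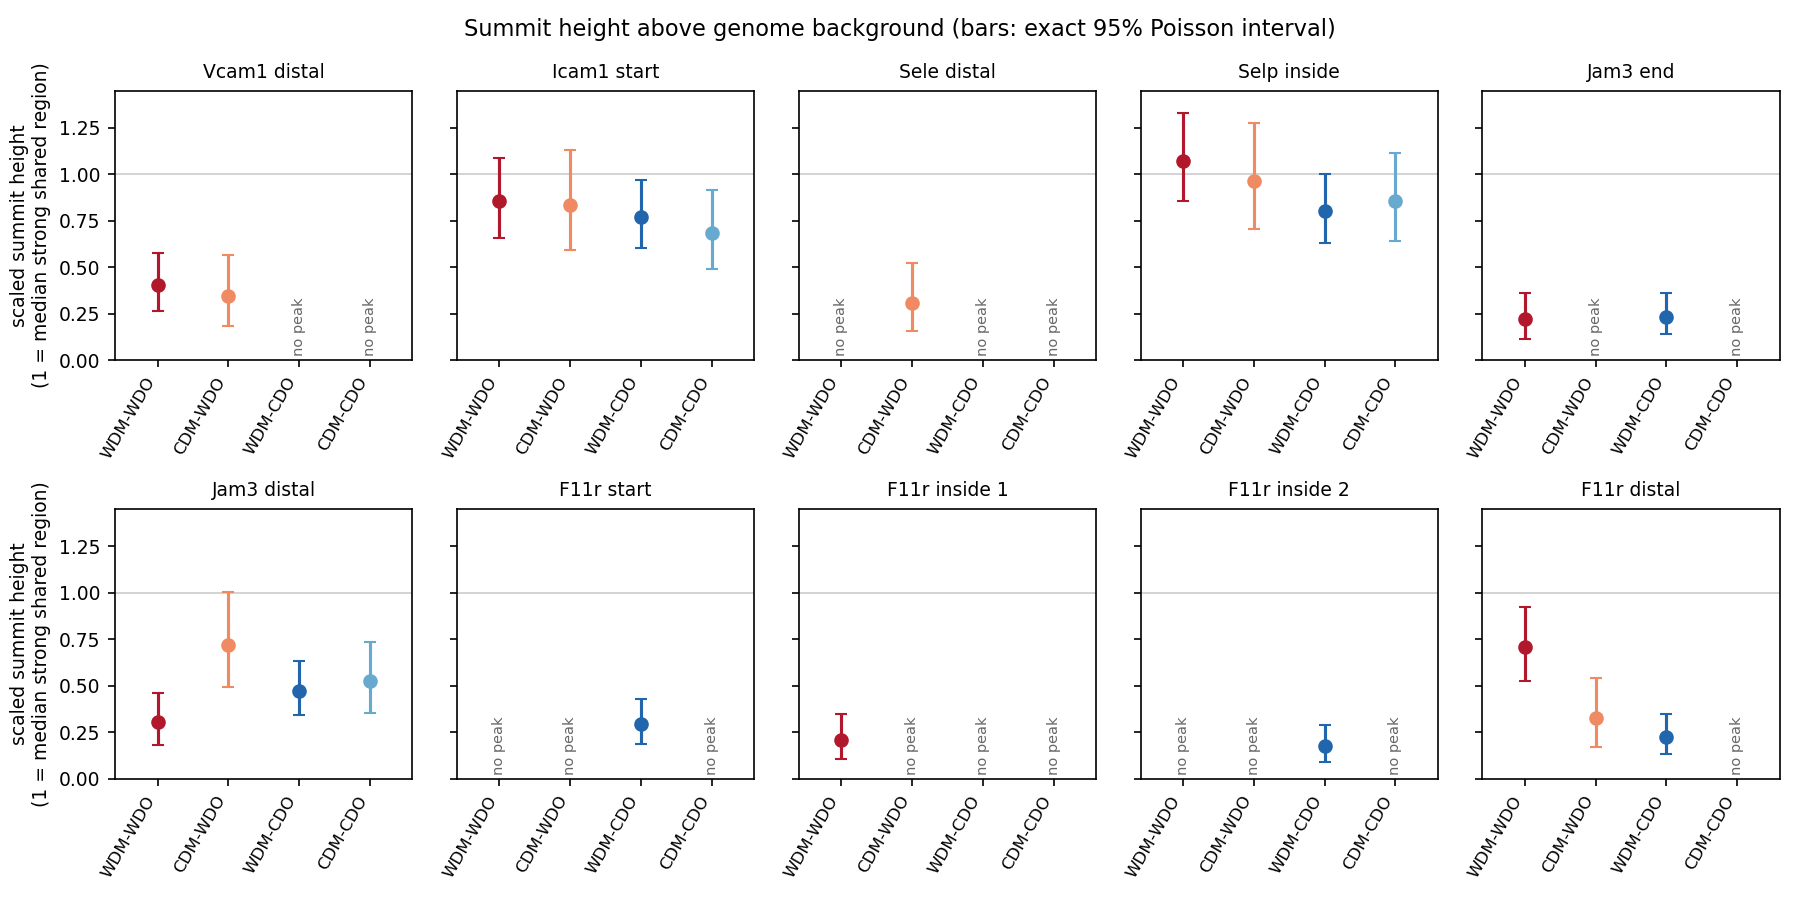
Scaled summit height of the 10 regions in each list, where 1 is the median strong shared region and bars are exact 95% Poisson intervals on the pileup. Icam1 and Selp stay between 0.68 and 1.07 in all 4 lists, the F11r distal region is highest in WDM-WDO (0.71), and the Jam3 distal region is lowest there (0.30).

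For the diet of the mothers with offspring on WD, WDM-WDO was set against CDM-WDO. Of 8 regions in either list 2 were in WDM-WDO alone, the Jam3 end and the weak region inside F11r (25%), against 42.2% of all regions. The Sele region was in CDM-WDO alone (1 of 8, 12.5%), against 20.3% of all regions. With the WDM-WDO peak beside Vcam1 not counted, 2 regions were in CDM-WDO alone. Among the 5 shared regions, the ratio of scaled heights was 2.16 at the F11r distal region and 0.42 at the Jam3 distal region. The same ratio was 0.98 at the median of 12230 shared regions, with a 5th to 95th percentile range of 0.58 to 1.55. Both members were thus outside the central 90%, in opposite directions, although the intervals of the F11r heights overlapped. The F11r distal region had 23 reads in CDM-WDO, and the shared regions were not matched for height. Ratios at Icam1, Selp and the Vcam1 region were 1.03, 1.11 and 1.16.

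For the diet of the mothers with offspring on CD, WDM-CDO was set against CDM-CDO. Of 7 regions in either list 4 were in WDM-CDO alone (57.1%, interval 18.4 to 90.1%), against 34.3% of all regions. They were the Jam3 end and the start, an inner and the distal region of F11r. In CDM-CDO alone there were 0 of 7, which allows up to 41.0%, against 15.9% of all regions. Both shares were within counting error of the background. The 4 regions were weak, with −log10 q of 3.29 to 7.58, and 2 of them were left with peaks limited to a −log10 q of at least 5. Ratios of scaled heights were 1.13 at Icam1, 0.90 at the Jam3 distal region and 0.94 at Selp, against a median of 0.96 over 16709 shared regions.

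For the diet of the offspring of WD mothers, WDM-WDO was set against WDM-CDO. Of 9 regions in either list 2 were in WDM-WDO alone, the Vcam1 region and 1 inside F11r (22.2%), against 26% of all regions. As many were in WDM-CDO alone, the F11r start and the other inner region (22.2%), against 31.8% of all regions. The F11r distal region had a ratio of scaled heights of 3.17, above 99.5% of 16103 shared regions, and its intervals did not overlap. It had 28 reads in WDM-CDO, and the shared regions were not matched for height. Ratios were 1.34 at Selp, 1.11 at Icam1, 0.94 at the Jam3 end and 0.64 at the Jam3 distal region, with overlapping intervals and a median of 1.06 over shared regions.

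For the diet of the offspring of CD mothers, CDM-WDO was set against CDM-CDO. Of 6 regions in either list 3 were in CDM-WDO alone, those beside Vcam1, Sele and F11r (50%, interval 11.8 to 88.2%), against 25.6% of all regions. In CDM-CDO alone there were 0 of 6, which allows up to 45.9%, against 36.4% of all regions. The other 3 regions had ratios of scaled heights of 1.22 at Icam1, 1.38 at the Jam3 distal region and 1.13 at Selp, against a median of 1.07 over 11269 shared regions. Scaled to the genome background all 3 were below 1, at 0.85, 0.95 and 0.79, against a median of 0.75 under that scaling. The comparisons share lists with one another, and each is given on its own.

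**Figure D4:**
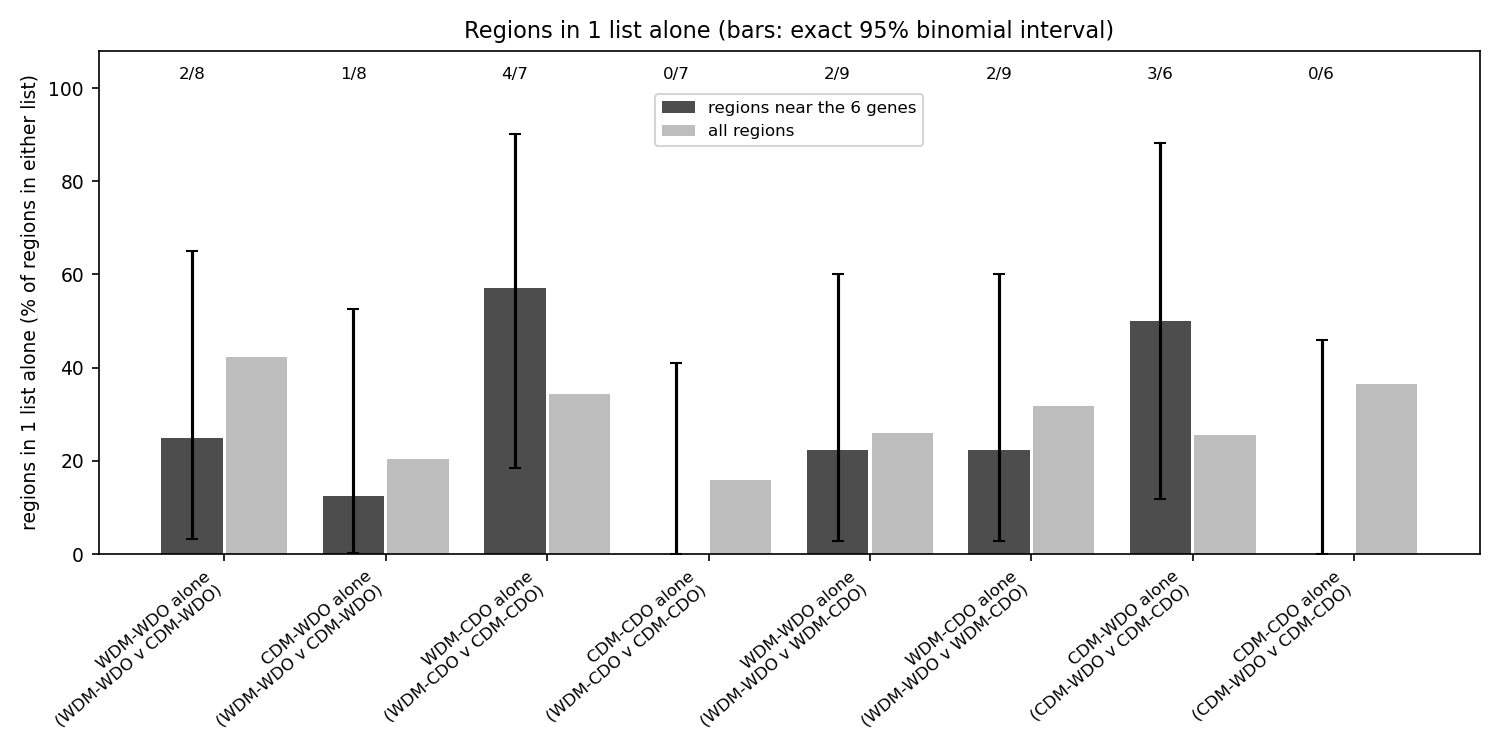
Percent of regions in either list that were in 1 list alone, for regions near the 6 genes (dark, with exact 95% binomial intervals and counts above) and for all regions (light), in the 4 comparisons. The largest member share is 4 of 7 in WDM-CDO alone (57.1%, against 34.3% of all regions), and every interval includes the share of all regions.

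A missing call is not the same as closed chromatin. For each list without a peak, the pileup expected there was computed as if the scaled height were that of a list with one. The pileup that a call needed was the smallest that reached the weakest −log10 p called in that list, at the same local background relative to the genome. The Vcam1 region would have had 45.9 or 40.3 reads in WDM-CDO, where 19 or 16 were needed, and 32.6 or 28.8 in CDM-CDO, where 17 or 15 were needed. The Sele region would have had 31.4 reads in WDM-WDO, 36.6 in WDM-CDO and 26.2 in CDM-CDO, where 17, 16 and 14 were needed. The F11r distal region would have had 53.7, 27.5 or 20.3 reads in CDM-CDO, from its heights in WDM-WDO, CDM-WDO and WDM-CDO, where 19, 15 or 16 were needed. At these 3 regions the expected pileup was 1.27 to 2.83 times the needed one, lowest for F11r from its height in WDM-CDO. Counting error of the expected pileups is not included. They rest on 1 scaling and start from lists picked because a peak was called there, which can make them too high. These values therefore do not show that the chromatin was closed in the lists without a peak.

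At the other regions the expected pileup was 0.78 to 1.32 times the needed one. The F11r start would have had 30.1 reads in WDM-WDO, 21.2 in CDM-WDO and 25.1 in CDM-CDO, where 27, 26 and 24 were needed. The Jam3 end would have had 17.2 or 18.0 reads in CDM-WDO, where 17 or 18 were needed, and 1.25 or 1.31 times the needed 16 in CDM-CDO. The first region inside F11r was expected at 0.83 times the needed pileup in CDM-WDO, 1.32 times in WDM-CDO and 1.06 times in CDM-CDO. The other was expected at 1.01 times in WDM-WDO, 0.78 times in CDM-WDO and 0.99 times in CDM-CDO. Where the expected pileup was below the needed one, as for all 3 F11r regions in CDM-WDO, a difference in openness was not detectable at this depth.

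The place of the summit also differed between lists at Icam1 and Selp, a feature chosen, with the split of the lists, after its values were seen. At Icam1 the summit lay 402 bp before the start in WDM-WDO and 354 bp before it in CDM-WDO, against 45 bp after it in WDM-CDO and 54 bp before it in CDM-CDO. Summits of the WDO lists were thus at least 300 bp further upstream than those of the CDO lists. Of 10351 regions in all 4 lists 130 had summits parted by offspring diet by as much (1.26%), and of the 101 regions at least as wide 4 did (3.96%). At Selp the summits parted by the mothers' diet, at 20766 bp in WDM-WDO and 20413 bp in CDM-WDO from the lower-coordinate end, and at 20718 bp in WDM-CDO and 20468 bp in CDM-CDO. The gap of 250 bp between WDM and CDM summits was reached by 89 of 10351 regions (0.86%), and by 49 of the 3196 at least as wide (1.53%). Without a split chosen from the values, a span of all 4 summits as large as the 447 bp at Icam1 was found at 8.29% of these regions and at 32.7% of those as wide. A span as large as the 353 bp at Selp was found at 12.8% and 19.0%. The lists give 1 summit per peak, so the height of a second maximum inside these wide peaks is not known. At the Jam3 distal region the 4 summits lay within 131 bp, near the median of 124 bp for regions in all 4 lists, and those of the F11r distal region within 52 bp.

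**Figure D5:**
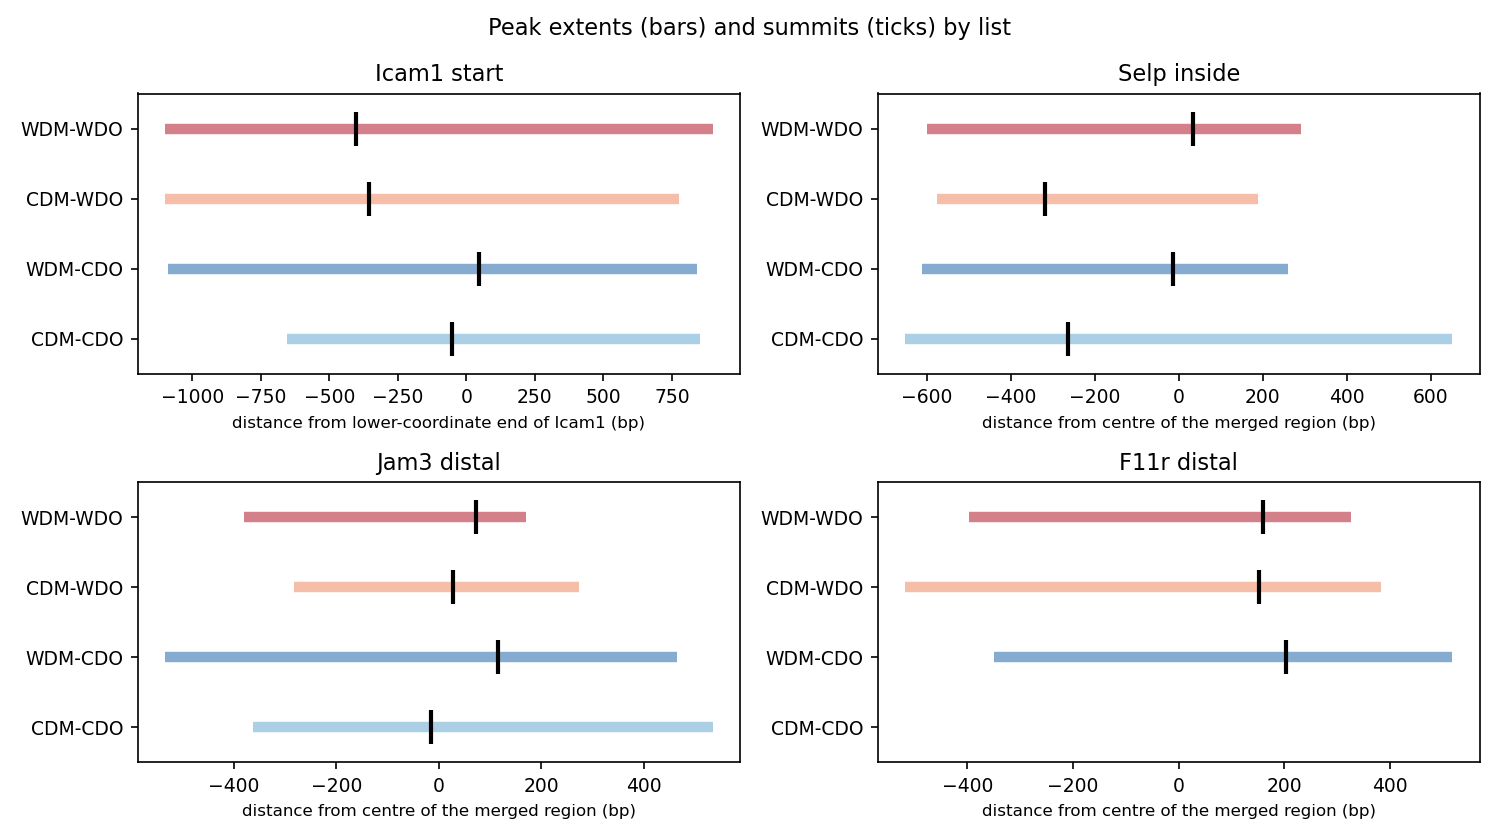
Extent (bars) and summit (ticks) of the peaks at 4 regions, 1 row per list, by distance in bp from the start of Icam1 or from the centre of the merged region. Icam1 summits lie 354 to 402 bp before the start in the WDO lists and within 54 bp of it in the CDO lists, Selp summits part by the mothers' diet, and F11r has no CDM-CDO peak.

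Other genes of leukocyte capture were taken in 5 lists with 65 genes, of which 61 had at least 1 region and 281 regions in all. All 4 lists shared 78 of these regions (27.8%), against 21.6% of all regions. In WDM-WDO alone against CDM-WDO there were 85 of 213 regions (39.9%, against 42.2% of all regions), and in CDM-WDO alone 28 (13.1%, against 20.3%). In WDM-CDO alone against CDM-CDO there were 68 of 210 (32.4%, against 34.3%), and in CDM-CDO alone 26 (12.4%, against 15.9%). In WDM-WDO alone against WDM-CDO there were 61 of 245 (24.9%, against 26%), and in WDM-CDO alone 60 (24.5%, against 31.8%). In CDM-WDO alone against CDM-CDO there were 38 of 180 (21.1%, against 25.6%), and in CDM-CDO alone 52 (28.9%, against 36.4%). Every one of these 8 shares was below that of all regions. Among the integrins and selectin ligands on leukocytes, all 14 genes had a region. Cd44, a receptor of hyaluronan that also binds E-selectin, had 10, 11, 10 and 8 regions in WDM-WDO, CDM-WDO, WDM-CDO and CDM-CDO. Itgam, the alpha chain of the Icam1 receptor Mac-1, had 6, 1, 3 and 3.

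Of 19 other endothelial adhesion genes 17 had a region. Cdh5, the VE-cadherin of endothelial junctions, had 3, 4, 6 and 1 regions in the same order, and Cd47, the brake on engulfment, 9, 6, 8 and 7. Jam2, the third classic junctional adhesion molecule, had 1 region that was in all 4 lists. Of the 9 genes that anchor adhesion proteins inside the cell, the polarity gene Pard3 had 4, 3, 3 and 1 regions and the junctional scaffold gene Afdn 1, 2, 3 and 1. Of 11 enzymes that build selectin ligands 9 had a region. The galactosyltransferase gene B4galt1 had 8, 3, 7 and 7, and Gcnt1, which starts the branched sugars that P-selectin binds, had 4, 0, 2 and 0. Of the 12 receptors and regulators of cytokine response, Nfkb1 had 8, 5, 7 and 9 and Tnfaip3, a brake on NF-kB, 14, 7, 10 and 7.

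By the numbers of regions in the 4 lists, 2 protein-coding genes had the same pattern as F11r (2, 1, 3 and 0), the cyclin gene Ccnd1 and the tRNA splicing gene Tsen15. The next, 1700125H20Rik, was among 76 genes that differed by 1 region in 1 list. The likeness rests on 4 lists and on small counts, and the other 5 members had too few regions for it.

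Markers of other cells differed between the lists. Of 8 macrophage and monocyte markers 8 had a peak within 1 kb of a gene end in WDM-WDO, 3 in CDM-WDO, 4 in WDM-CDO and 4 in CDM-CDO. Ptprc, the pan-leukocyte marker CD45, had 6, 6, 8 and 9 regions. Of 6 T and B cell markers 2, 0, 4 and 4 had such a peak, and of 5 neutrophil markers 4, 1, 0 and 0. Of 5 platelet markers 2, 0, 1 and 0 had one, of 5 smooth muscle markers 1, 1, 2 and 2, and of 5 fibroblast markers 2, 1, 1 and 1. Of 10 endothelial markers 2, 2, 3 and 3 had one, while 8, 9, 9 and 8 had a region within 100 kb. Pecam1, the endothelial marker CD31, had 1, 2, 6 and 1 regions. Icam1 and F11r are also made by leukocytes and Selp by platelets, so cells of other types could carry these regions. Their part in the differences between lists was not tested.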

How the data were processed

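Peak lists of the 8 ATAC-seq samples were used, and 4 samples of the mark H3K27ac were not. Per the submitters' processing notes, the build was GRCm38 (mm10) and the tools included Bowtie2 2.4.5, deepTools 3.5.4, FastQC 0.12.1, MACS2 2.2.9.1, SAMtools 1.13 and Trim Galore 0.6.10. Settings, a shift of read ends for the transposase and pooling of the 2 samples of a group are not given in the sources used here. Deposited by the authors were, per summit, a fold enrichment (a ratio), the −log10 p, the −log10 q and a whole-number score, of which the score was not used. The lists end near a −log10 q of 1.30 to 1.31, and chromosome Y (20 peaks) was not used.

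Whole-number pileups matched fold and −log10 p to 0.0001 (relative) in 100% of peaks, given a Poisson test and 1 read added to both sides of the fold. This recovery, the merging and the assignment to genes were tested on simulated data. Gene spans came from a RefSeq table of GRCm38.p6 with 21631 protein-coding genes, which gives no exons, so a place inside a gene cannot be called exonic or intronic. A region belonged to a gene when any of its peaks was nearest to it. Named are all 6 members, the 2 genes of each pathway list with the most regions in 1 list alone, and the 3 genes most like a member with at least 4 regions; Jam2, Ptprc, Pecam1 and neighbours were named after their values were seen. Some neighbouring genes are not reported here. The members, lists and rules were chosen with earlier results of these data known. Python 3.11.15, pandas 2.3.3, NumPy 2.4.6, SciPy 1.17.1 and matplotlib 3.10.9 were used.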

Additional observations from a re-analysis of the deposited data

How the results depend on the processing

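The 3 regions called in all 4 lists (Icam1, Selp and the Jam3 distal region) stayed 3 under every alternative except assignment within 10 kb, which drops the Jam3 region by construction and leaves 2. With a reciprocal overlap of 50%, and with tied regions left out, all counts were as reported. With peaks limited to a −log10 q of at least 5, WDM-WDO against CDM-WDO had 1 region in WDM-WDO alone and 0 in CDM-WDO alone. The 1 was the F11r distal region, whose CDM-WDO peak had a −log10 q of 4.67. Neither region reported above as in WDM-WDO alone was left in that comparison. Under the same limit, 2 regions were in WDM-CDO alone against CDM-CDO and 1 in CDM-WDO alone against CDM-CDO. WDM-WDO against WDM-CDO had 1 region in each list alone. In WDM-CDO alone it was the Jam3 end, whose WDM-WDO peak had a −log10 q of 4.09, and neither region reported above was left. With lists cut to 18962 peaks, the region counts became 1 in WDM-WDO alone against CDM-WDO and 1 in each list alone (WDM-WDO against WDM-CDO). WDM-CDO alone against CDM-CDO was 3. Within 10 kb, 1 region was in WDM-WDO alone against WDM-CDO and 2 in CDM-WDO alone against CDM-CDO.

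After seeing the data, 2 alternatives were added for the region beside Vcam1. With peaks counted where their own nearest gene was a member, 2 regions were in CDM-WDO alone against WDM-WDO and 1 in WDM-WDO alone against WDM-CDO; with the region left out, the last count was also 1, and 2 regions were in CDM-WDO alone against CDM-CDO. Scaling pileups to the genome background moved the median ratio of shared regions by 0.42, 0.30, −0.38 and −0.50 on the log2 scale in the 4 comparisons and turned 6 of 16 ratios of the members across 1. Relative to that median 11 of 16 ratios were higher under both scalings and 0 turned. No paired analysis was possible because each group has 1 peak list that does not separate its samples, and for the same reason leaving out each replicate was not run. Regions with pileups near those a call needs cannot be compared at this depth.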

Other observations

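The neighbours of the 6 genes differed in how steadily they were called. Around Icam1, a region nearest to its family member Icam4 began 1587 to 2052 bp beyond the upper-coordinate end of Icam1 and was in all 4 lists, while Icam5 had 0 regions. In the selectin cluster on chromosome 1, Selp had the region shared by all lists. F5, the coagulation factor V gene next to Selp, had 1 region in WDM-WDO and another in WDM-CDO, with 0 in CDM-WDO and CDM-CDO. The WDM-CDO peak near F5 lay 1419 bp beyond the upper-coordinate end of Selp. Within 100 kb of F11r, the nectin gene Nectin4, 49274 bp away, had 2 regions in WDM-WDO, 0 in CDM-WDO and WDM-CDO, and 1 in CDM-CDO. Closer by, at 18607 bp, Usf1, a transcription factor gene, had 1 region in all 4 lists.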
